A study of Mus musculus with 8 samples.

Results

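The 10 genes described here encode factors of the naive pluripotency network of mouse embryonic stem (ES) cells: *Nanog*, *Esrrb*, *Klf2*, *Klf4*, *Klf5*, *Tfcp2l1*, *Tbx3*, *Nr5a2*, *Nr0b1* and *Dppa3*. They are 10 of the 23337 gene names in the table, and all 10 had a mean of at least 10 normalized counts, the minimum for testing. The genes were listed by name, and *Nanog* was set against the others, a choice selected on the measured values: its normalized counts were already known to be higher at passage 16 in every clone. So the passage changes of the 10 are a description, and tests of that contrast are given as counts over the whole table only. RNA was sequenced from 4 independently derived ES cell clones (numbers 6, 20, 30 and 36), each at passage 6 (P6) and again at passage 16 (P16). Every library carried the same labels: wild type, strain 129S1, mouse blastocyst origin, and growth in DMEM with LIF (leukaemia inhibitory factor). The design notes add that the blastocysts expressed GFP from the *Rosa26* locus, and the study's methods name C57BL6 as well as 129S1 ES cells. The study asked what expansion in culture, during which telomeres lengthen, does to ES cells. The groups differ in the number of passages, and each clone is 1 cell line with 1 library per passage.

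A naive ES cell keeps the identity of the early epiblast through a set of transcription factors that bind together at shared enhancers and sustain one another's transcription. LIF acts through STAT3 to raise *Klf4* and *Tfcp2l1*, WNT signalling relieves *Esrrb* and other genes of repression by TCF7L1, and FGF/ERK signalling pushes the network towards exit. *Nanog* and *Dppa3* are genes whose level varies between single cells of one ES cell culture, which a bulk library averages. In bulk samples such as these, a change in the number of expressing cells and a change in RNA per cell cannot be told apart.

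Libraries held between 21394069 and 34295561 reads. The rows were not in register between libraries, within 644 groups (5080 names) formed by names that extend another name by a digit. Restoring the order, which is an estimate, gave up to 991 names of a library another count (0 in the P6 library of clone 6, the reference). None of the 10 genes is in such a group, so their values are the same with the row order as deposited or restored. The 8 markers of pluripotent cells were present in all libraries, with summed levels of 108322 to 119279 normalized counts at P6 and 105537 to 113155 at P16. The 2 libraries of clone 6 were weakly alike (r = 0.07 between their deviations from the passage means over 14640 genes). Its P6 library was closer to the P16 libraries of clones 36 (0.28) and 20 (0.19), while its P16 library was closest to its own P6 library, so counts of members are also given without clone 6.

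Sequence upstream of the transcription start was taken from RefSeq (GRCm38.p6) for 3 genes: *Nanog* and *Klf4*, the 2 whose passages did not overlap, and *Nr0b1*, the 1 with a lower mean at P16. Each is the 250 bases before the start, printed in the direction of transcription, with capitals marking matches to 5 motifs searched on both strands: a POU factor site (ATGCAAA), a SOX site (ACAATG), an ESRRB site (AAGGTCA), a KLF site (CCNCNCCC) and a STAT site (TTCCNNGAA).

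*Nanog*, chr6:122707239-122707488, plus strand: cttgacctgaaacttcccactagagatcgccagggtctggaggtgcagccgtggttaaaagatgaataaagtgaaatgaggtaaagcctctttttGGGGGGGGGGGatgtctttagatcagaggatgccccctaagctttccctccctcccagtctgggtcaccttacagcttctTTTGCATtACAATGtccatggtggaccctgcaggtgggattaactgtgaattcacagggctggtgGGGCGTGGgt

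*Klf4*, chr4:55532476-55532725, minus strand: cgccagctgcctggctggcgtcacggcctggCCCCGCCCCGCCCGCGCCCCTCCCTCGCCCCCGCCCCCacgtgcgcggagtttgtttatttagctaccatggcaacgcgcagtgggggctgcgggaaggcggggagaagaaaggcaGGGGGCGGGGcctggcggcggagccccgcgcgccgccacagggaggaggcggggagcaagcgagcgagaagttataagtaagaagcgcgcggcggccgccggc

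*Nr0b1*, chrX:86191525-86191774, plus strand: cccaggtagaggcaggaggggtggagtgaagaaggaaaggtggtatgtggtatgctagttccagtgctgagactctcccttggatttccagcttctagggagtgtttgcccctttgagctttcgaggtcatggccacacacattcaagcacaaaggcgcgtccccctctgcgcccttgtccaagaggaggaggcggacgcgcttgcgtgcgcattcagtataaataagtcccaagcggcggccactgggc

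The *Nanog* promoter holds the POU and SOX matches side by side, beginning 75 and 67 bases before this start (151 and 143 bases before a second annotated start), the arrangement known as the OCT4-SOX2 composite element. The 7 members with a promoter entry (*Esrrb*, *Klf2*, *Klf4*, *Nanog*, *Nr0b1*, *Nr5a2* and *Tfcp2l1*) had 10 windows, as *Nanog*, *Esrrb* and *Nr5a2* have 2 each, and a match in either was counted. *Nanog* was the 1 with a POU match and the 1 with a SOX match. Among 32851 promoter windows of the same length, 4.12% held the POU letters and 10.69% the SOX letters. KLF letters occurred in 6 of the 7 members, in overlapping runs in *Klf4*, and 45.93% of all windows held them. *Esrrb* was the 1 member with STAT letters (4.06% of windows), and none held the ESRRB letters (4.08% of windows). *Nr0b1* had no match to any of the 5 in this window. *Klf5*, *Tbx3* and *Dppa3* had no entry in the promoter table.

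The factors spanned a wide range of levels. Per kilobase of exon, *Nanog*, the homeodomain protein that holds cells in self-renewal, was the most abundant of the 10, with a mean over 8 libraries of 3488 normalized counts per kb (range 2960 to 4046). This level stood at percentile 96.28 of the 11097 ranked names. Those are the names outside the displaced groups that had an exon length and a mean of at least 10. *Esrrb*, an orphan nuclear receptor and a direct target of NANOG, followed with 1969 per kb (1682 to 2237), a ratio of 1.77 between the means, with *Nanog* higher in 8 of 8 libraries and no overlap of the ranges.

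*Klf2* and *Klf4*, zinc finger factors that share binding sites, had 1865 per kb (1290 to 2274) and 1757 per kb (1436 to 2162). *Klf2* could not be placed between its neighbours, as *Esrrb* was above it in 5 of 8 libraries and it was above *Klf4* in 5 of 8. *Esrrb* was above *Klf4* in 8 of 8 libraries, although their ranges overlapped. A gap followed: *Klf4* was above *Nr0b1* (1001 per kb, 677.7 to 1251) in 8 of 8 libraries, by a ratio of 1.76 with no overlap. *Nr0b1* encodes DAX1, a nuclear receptor family protein that binds OCT4.

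Below it came *Tbx3*, a T-box factor, with 823.7 per kb (647.5 to 1011), *Tfcp2l1*, a LIF/STAT3 target of the CP2 family, with 694.6 per kb (639.4 to 768.7), and *Klf5*, a KLF factor of the inner cell mass, with 556.9 per kb (465.7 to 697). *Dppa3* had 425.2 per kb (291.5 to 528.3) and encodes the maternal factor STELLA, which protects methylation states in the zygote. Neighbours in this stretch had overlapping ranges. *Nr5a2*, an orphan nuclear receptor that can stand in for OCT4 in reprogramming, was lowest at 213.6 per kb (201.9 to 236.3), below *Dppa3* in 8 of 8 libraries without overlap and near the median of 196.3 per kb over all ranked names. *Nanog* was highest and *Nr5a2* lowest in each of the 8 libraries.

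**Figure D1:**
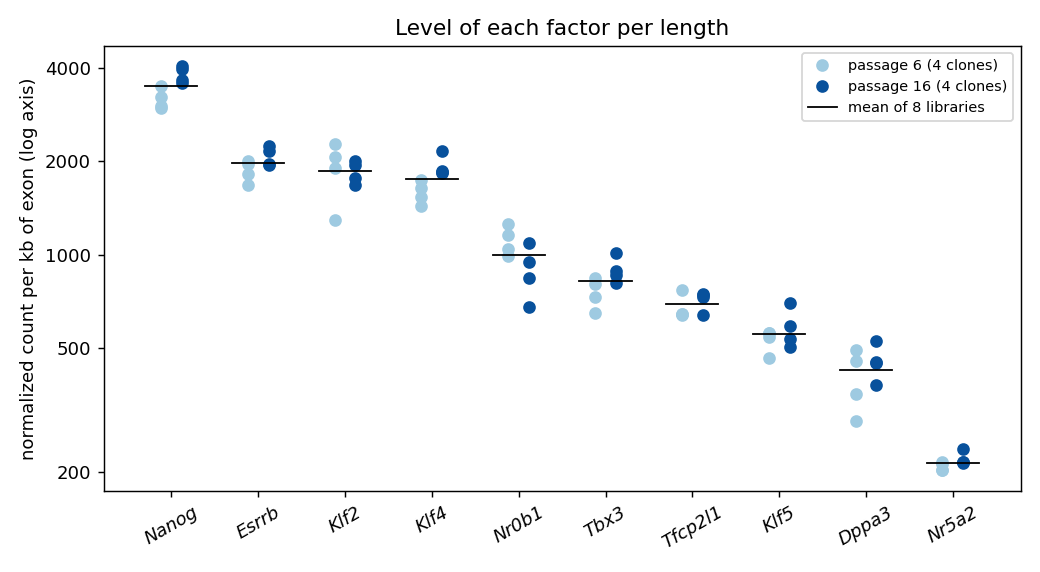
Normalized counts per kb of exon (log axis) of the 10 factors, ordered by their mean over 8 libraries (black line); each point is 1 library, pale for passage 6 and dark for passage 16. *Nanog* lies between 2960 and 4046 in all libraries, above every other factor, and *Nr5a2* lies lowest, between 201.9 and 236.3.

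In normalized counts, *Nanog* (chromosome 6, 122707489 to 122714633, plus strand) had 7205, 6636, 7855 and 6725 at P6 and 9071, 8188, 8863 and 8019 at P16 in clones 6, 20, 30 and 36. The lowest P16 library lay above the highest P6 library, so the passages did not overlap. The means were 7105 ± 558.7 (SD, n = 4 clones) and 8535 ± 510.5 (SD, n = 4), a log2 change of 0.27 with a standard error of 0.03 over the clone pairs, or 1.20-fold. The changes of the single clones, 0.33, 0.30, 0.17 and 0.25, were the most even of the 10 in standard error. As background, 1.21% of the 12283 tested names outside the displaced groups were higher at P16 without overlap, and 8.14% were higher in 4 of 4 clones.

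*Nanog* was not the only factor with this pattern. *Klf4* (chromosome 4, 55527137 to 55532475, minus strand), which LIF raises through STAT3, had 4651, 4350, 4970 and 5283 normalized counts at P6 and 6549, 5636, 5586 and 5546 at P16 in clones 6, 20, 30 and 36. Its passages did not overlap either. The log2 change was 0.28 with a standard error of 0.10 (1.21-fold), as large as that of *Nanog* but less even, from 0.07 in clone 36 to 0.49 in clone 6.

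*Esrrb* (chromosome 12, 86361117 to 86521628, plus strand) was also higher at P16 in every clone. Its normalized counts were 11263, 9463, 10224 and 11001 at P6 and 12587, 10970, 12097 and 11017 at P16. The passages overlapped, the log2 change was 0.15 with a standard error of 0.05, and clone 36 hardly differed (0.0021). *Tbx3* (chromosome 5, 119670534 to 119684724, plus strand) was the other factor with a higher value in 4 of 4 clones, with 3370, 3800, 4385 and 4192 at P6 and 4593, 4487, 5262 and 4208 at P16. Its log2 change was 0.24 with a standard error of 0.09 (1.18-fold), and clone 36 again hardly differed (0.0054). Of the transcript 50-mers of *Tbx3*, 1.006% also occur in *Tbx3os1*, which overlaps it on the opposite strand, and the use of strand in counting is not given in the sources used here.

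The other KLF factors did not follow *Klf4*. *Klf2* (chromosome 8, 72319062 to 72321654, plus strand) had 4200, 2383, 3512 and 3814 normalized counts at P6 and 3107, 3248, 3709 and 3587 at P16. It was lower at P16 in clones 6 and 36 and higher in clones 20 and 30, from -0.43 in clone 6 to 0.45 in clone 20, and its mean log2 change was 0.0006 with a standard error of 0.18. The P6 libraries spread more than the P16 ones, with SDs of 781.9 and 282.2. *Klf5* (chromosome 14, 99298691 to 99313412, plus strand) had 2827, 2907, 2422 and 2911 at P6 and 2792, 3625, 2631 and 3056 at P16. It was higher in 3 of 4 clones, and its log2 change was 0.12 with a standard error of 0.07 (0.06 without clone 20).

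*Tfcp2l1* (chromosome 1, 118627923 to 118685168, plus strand) had 5953, 7125, 5936 and 5958 normalized counts at P6 and 6880, 6937, 6789 and 5926 at P16. Clones 6 and 30 were higher at P16 by 0.21 and 0.19 on the log2 scale, while clones 20 and 36 differed by -0.04 and -0.01, and the mean of 0.09 was 0.05 without either clone 6 or clone 30. *Nr5a2* (chromosome 1, 136842562 to 136960448, minus strand) was the steadiest of the 10, with 1196, 1125, 1177 and 1130 at P6 and 1196, 1185, 1197 and 1317 at P16. The SD of its log2 values over the 8 libraries was 0.07, at percentile 10.6 of the 9444 names outside displaced groups with a mean of at least 100. Its log2 change was 0.08 with a standard error of 0.05 (0.03 without clone 36).

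*Dppa3* (chromosome 6, 122626424 to 122630271, plus strand) was the least abundant in counts and among the most variable. It had 411.6, 296.4, 379.3 and 242.8 normalized counts at P6 and 371.9, 316.6, 440.1 and 375.1 at P16, with a log2 change of 0.20 and a standard error of 0.16 (0.05 without clone 36, 0.31 without clone 6). The SD of its log2 values was 0.28 (percentile 82.8), and the clone changes ran from -0.15 in clone 6 to 0.63 in clone 36. Of its 50-mers, 16.508% also occur in other genes, chiefly the pseudogene *Dppa3-ps*, and reads from these copies may be split or lost in counting. The same share was 4.615% for *Nanog*, chiefly with *Nanog-ps1*, and at most 1.006% for the other 8 factors.

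*Nr0b1* (chromosome X, 86191775 to 86195947, plus strand) was the 1 factor with a lower mean at P16. Its normalized counts were 2261, 1891, 1792 and 2094 at P6 and 1225, 1522, 1971 and 1716 at P16. It was lower in clones 6, 20 and 36 and higher in clone 30, with a log2 change of -0.34 and a standard error of 0.21 (-0.15 without clone 6), and the passages overlapped. The largest single change of any of the 10 factors was in clone 6, at -0.88, where the median of chromosome X genes changed by -0.10, the lowest of the chromosome medians. Y-linked transcripts summed to between 4536 and 5366 normalized counts in clones 20 and 30 and to at most 14.21 in clones 6 and 36, and their relation to *Nr0b1* was not tested.

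**Figure D2:**
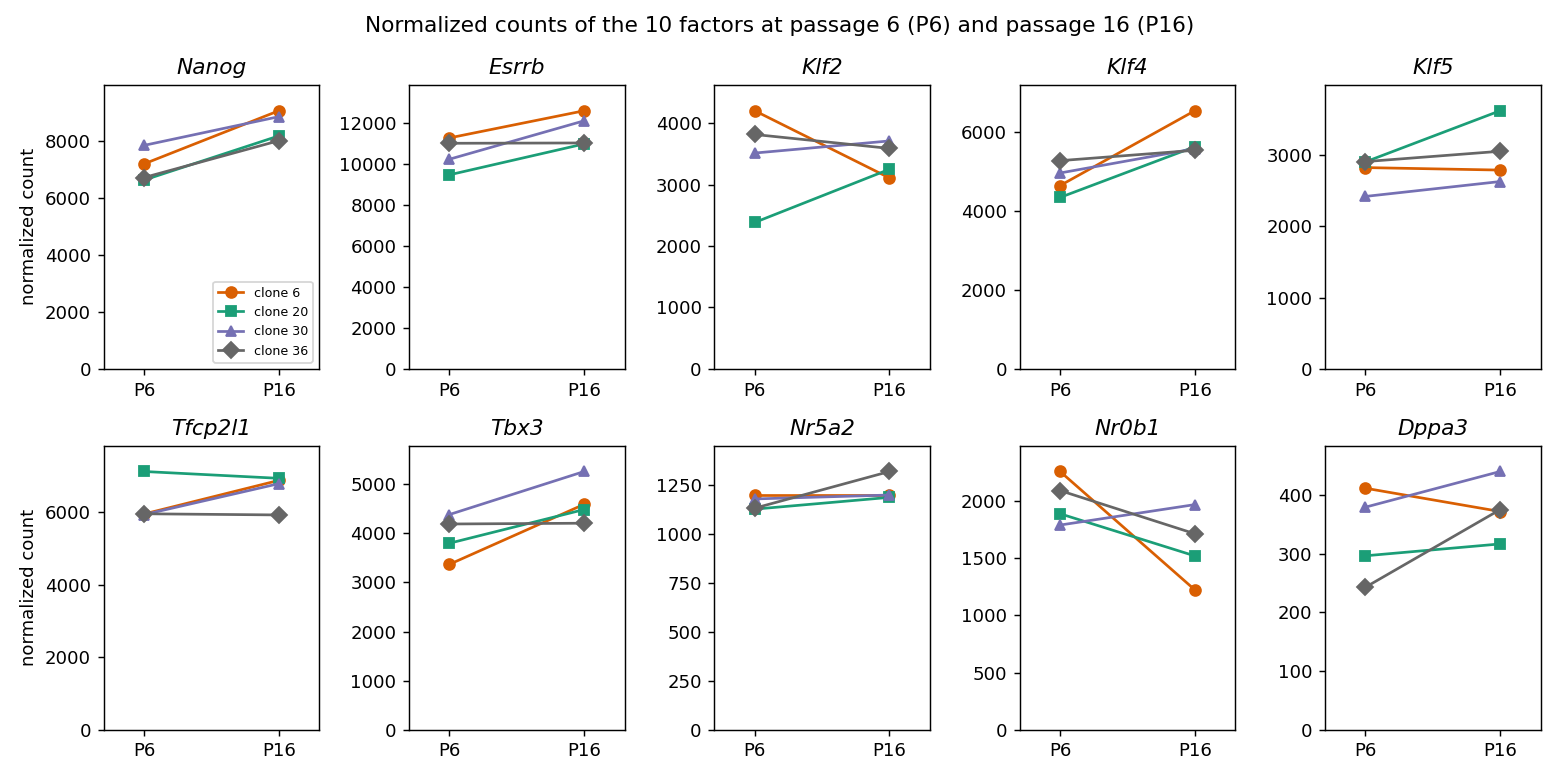
Normalized counts (axis from 0) of each factor at passage 6 and passage 16, with a line joining the 2 libraries of each clone. All 4 lines climb for *Nanog*, *Esrrb*, *Klf4* and *Tbx3*, those of *Klf2* cross, and 3 of 4 descend for *Nr0b1*.

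As a group, 9 of the 10 factors had a mean log2 change above 0 (49.6% of names outside displaced groups). At P16, 4 were higher in 4 of 4 clones (*Nanog*, *Esrrb*, *Klf4* and *Tbx3*; 8.14% of names), 0 were lower in 4 of 4 (9.14%), 2 were higher without overlap (1.21%) and 0 lower without overlap (1.16%). *Nanog* is in both counts of higher factors by selection, since it was set apart for its rise in every clone. Apart from it they hold *Esrrb*, *Klf4* and *Tbx3*, and only *Klf4* without overlap. The median change was 0.14, and 0.12 without *Nanog*, beside -0.0037 over the 14791 names tested. In limma over all names, 1 name (0.00676%) passed the threshold of 0.05 for passage, and it lay in a displaced group. DESeq2 on the recovered reads called 46 names (0.292%), 41 of them in displaced groups. With the clone as a block it called 98 (0.697%), 42 of them in displaced groups. Nothing is read from these for the 10, since the contrast had singled out *Nanog*. With the row order restored, 0 names passed in limma, edgeR or DESeq2 without a clone term, and 511, 517 and 624 had an unadjusted p under 0.05. Where several orders were possible, the one closest to the P6 library of clone 6 was taken. That choice can lower differences in the displaced groups, so the 0 does not show that these groups lack a change. Without clone 6, 7 of the 10 were higher in the 3 clones left (*Nanog*, *Esrrb*, *Klf4*, *Klf5*, *Tbx3*, *Nr5a2* and *Dppa3*; 14.1% of names outside displaced groups) and 3 did not overlap (*Nanog*, *Klf4* and *Nr5a2*; 3.68%). Both of these counts again include *Nanog*.

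The changes are given next by clone, and differences between clones in the change were not tested. At P16, 5 factors were higher in clone 6, 8 in clone 20, 10 in clone 30 and 7 in clone 36. The median change over the 10 was 0.08, 0.23, 0.17 and 0.04 in the same order. *Nanog* exceeded the median of the other 9 by 0.33 in clone 6 and 0.25 in clone 36, by 0.09 in clone 20 and by 0.0056 in clone 30, and had rank 3, 4, 5 and 2 among the 10 changes of clones 6, 20, 30 and 36. It had the top change in no clone, and the second mean change of the 10, after *Klf4*.

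**Figure D3:**
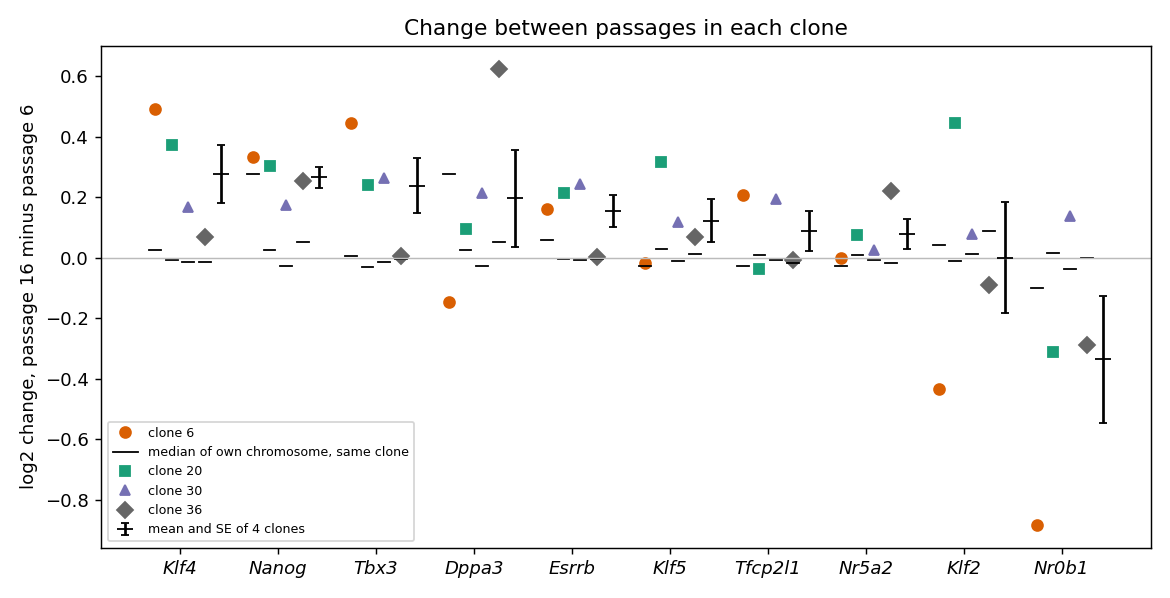
Log2 change (passage 16 minus passage 6) of each factor in each clone (coloured points), the median change of the genes on its chromosome in that clone (short lines), and the mean with its standard error over 4 clones (black bars). *Nanog* lies between 0.17 and 0.33 with the narrowest error, while *Nr0b1* runs from -0.88 to 0.14.

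*Nanog* and *Dppa3* lie close together on chromosome 6, where *Dppa3* ends 77.2 kb before *Nanog* begins. In clone 6 this chromosome shifted along its length, with medians of 0.13 to 0.33 in bins of 20 Mb: the median log2 change of its 586 genes was 0.28 and 78.16% of them were higher at P16, whereas the other 79 medians of a chromosome in a clone lay between -0.10 and 0.09. The change of *Nanog* in clone 6 exceeded the chromosome median by 0.06. In clones 20, 30 and 36 it exceeded it by 0.28, 0.20 and 0.20, so that its mean change relative to the chromosome was 0.18. *Dppa3* in clone 6 differed the other way, 0.42 below its chromosome's median. The medians of chromosome 6 in clones 20, 30 and 36 were 0.03, -0.03 and 0.05. Relative to their own chromosomes, *Klf4*, *Tbx3* and *Esrrb* changed by 0.28, 0.25 and 0.14. The part of the chromosome shift in the *Nanog* value of clone 6 was not tested.

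**Figure D4:**
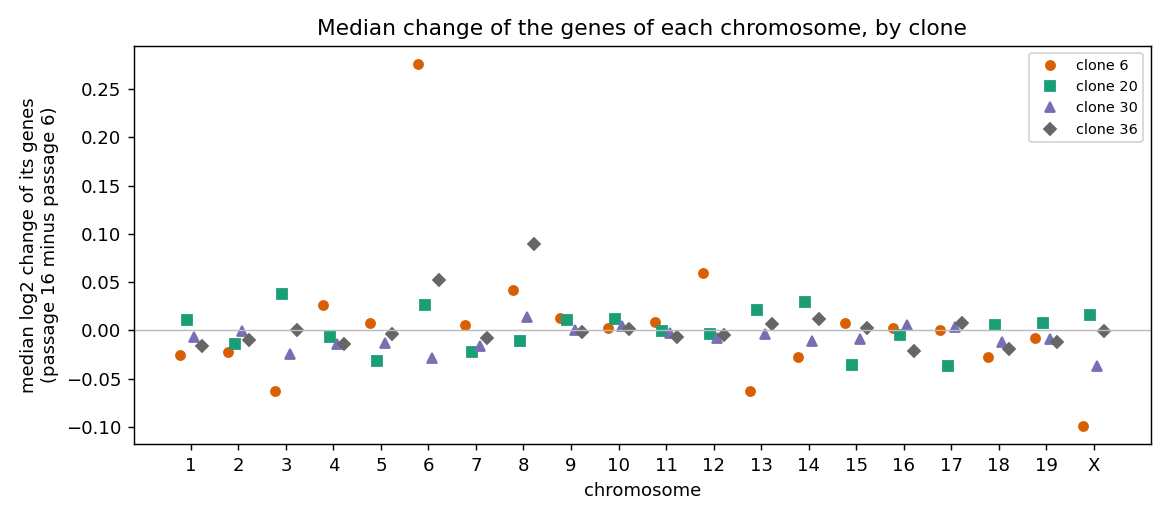
Median log2 change (passage 16 minus passage 6) of the genes of each chromosome, 1 point per clone. Chromosome 6 in clone 6 lies at 0.28, and every other point lies between -0.10 and 0.09.

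The genes around *Nanog* are given for comparison. Within 500 kb of *Nanog* or *Dppa3*, 9 other tested names are described: *M6pr*, *Phc1*, *Rimklb*, *Mfap5*, *Apobec1*, *Gdf3*, *Slc2a3*, *Foxj2* and *Necap1*. None was higher in 4 of 4 clones (8.14% of names outside displaced groups) and none was lower in 4 of 4 (9.14%), counts too small to set them apart from other names. Their median change was 0.16 in clone 6, where 8 of 9 were higher, and -0.14, -0.08 and -0.04 in clones 20, 30 and 36. *Slc2a3*, which encodes the glucose transporter GLUT3 and starts 20.3 kb after the *Nanog* start, had 51392 normalized counts at P6 and 56602 at P16 and a log2 change of 0.15 with a standard error of 0.27. *Gdf3*, a TGF-beta family ligand of ES cells, changed by 0.0044 with a standard error of 0.15.

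**Figure D5:**
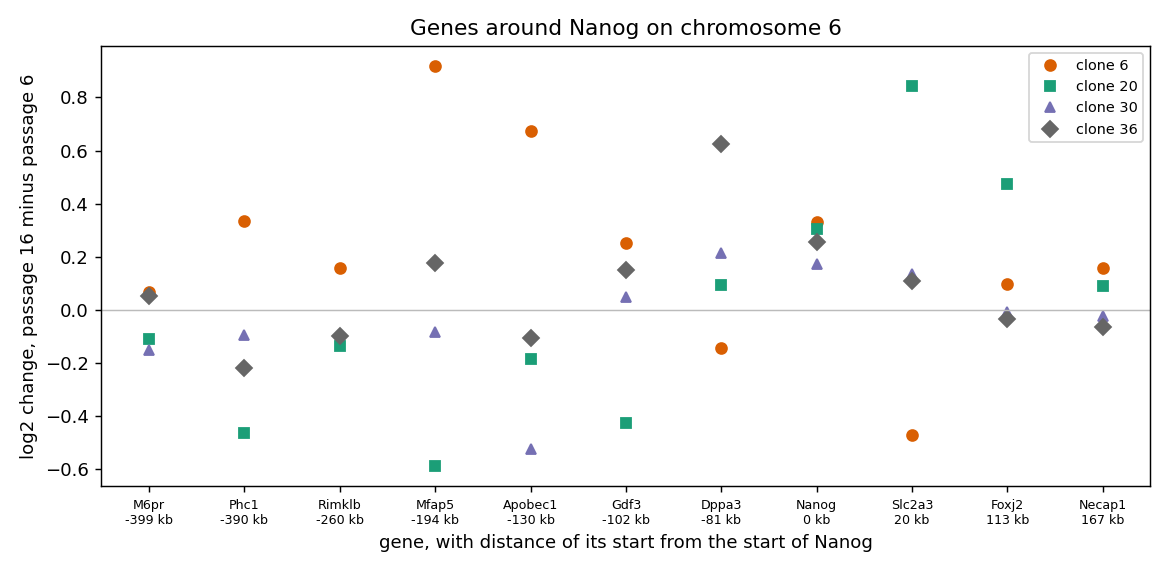
Log2 change (passage 16 minus passage 6) in each clone of *Nanog*, *Dppa3* and 9 other tested genes within 500 kb, in order along chromosome 6 with the distance of each start from the *Nanog* start in kb. *Nanog* has 4 points between 0.17 and 0.33, while each of the 9 neighbours has points on both sides of 0.

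Whether the factors differ between clones is a question the listing did not use. For *Nanog* the answer is not free of its choice, since the error of the test below is the spread of the passage change between clones. A moderated F test in limma, with the passage as a term and the 2 passages as the libraries of a clone, found none of the 10 past the threshold, beside 20 of all 14791 names (0.135%). Of those 20, 12 lay in displaced groups, which hold none of the 10. Adjusted p-values from limma ran from 0.4697 for *Klf5* to 0.8914 for *Nr5a2*, with 0.4767 for *Nanog*. The ratio of the highest to the lowest clone mean was 1.06 for *Nr5a2*, 1.14 for *Nanog* and 1.35 for *Dppa3*, which was highest in clone 30 and lowest in clone 36. These ratios were not shown to exceed the spread between the 2 libraries of a clone. DESeq2 called 7.76% of names and none of the 10. After restoring the rows, 89 names passed in limma (0.608%) and again none of the 10.

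Across the 8 libraries, *Klf4* was the member most like *Nanog* (Pearson r = 0.81 on log2 values), followed by *Esrrb* and *Tbx3* (both 0.74), *Dppa3* (0.65) and *Nr5a2* (0.51). *Tfcp2l1* (0.27), *Klf2* (0.15) and *Klf5* (-0.07) were little related to it, and *Nr0b1* moved opposite (-0.66). These r values describe 8 libraries from 4 clones that share the passage contrast, and *Klf4* ranked 269th of 9443 candidate names. Among the 5 names most like *Nanog* were *Mmp17*, a membrane metalloproteinase (0.98), *Fbn2*, a fibrillin (0.97), *Fcho1*, an endocytic adaptor (0.95), and *Urgcp* (0.95). These 4 were higher at P16 in 4 of 4 clones (8.14% of names outside displaced groups), from 0.17 for *Urgcp* to 0.69 for *Fbn2*. They were picked for likeness to *Nanog* in the same libraries, so a shared rise largely follows from the choice. Among the other members, *Esrrb* and *Klf4* were most like each other (0.82), *Klf2* was most like *Esrrb* (0.49) and least like *Tfcp2l1* (-0.73), and *Klf5* most like *Tfcp2l1* (0.31). *Tfcp2l1* was most like *Tbx3* (0.35), *Tbx3* and *Dppa3* were most like *Nanog*, *Nr5a2* most like *Dppa3* (0.57), and *Nr0b1* most like *Klf2* (0.41).

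The wider pluripotency network gave values in both directions. With the row order restored, of 20 other pluripotency genes 2 were higher in 4 of 4 clones (*Sox2* and *Tdgf1*) and 6 were lower in 4 of 4 (*Utf1*, *Lin28a*, *Zfp281*, *Foxd3*, *Tdh* and *Rif1*), with a median change of -0.08. Over all names outside displaced groups, 8.14% were higher and 9.14% lower in 4 of 4. *Pou5f1*, which encodes OCT4, had 26136 ± 2325 normalized counts at P6 and 25211 ± 1314 at P16 (SD, n = 4 each), a log2 change of -0.05 with a standard error of 0.09. *Trim28*, a corepressor, and *Dppa5a*, an RNA-binding protein of ES cells, differed by -0.07 and -0.10 with standard errors of 0.08 and 0.12. None of the 20 passed in limma for passage. Over all names, that test called 1 as deposited and 0 with the row order restored.

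Among 18 regulators of the naive network, which include the LIF receptor and STAT3, 2 were higher in 4 of 4 clones (*Tcf7l1*, the WNT-linked repressor, and *Smad1*), 1 was lower (*Etv4*, an ERK-responsive ETS factor), and the median change was 0.06. These counts stand beside 8.14% higher and 9.14% lower over all names outside displaced groups, as do those of the next list. *Ctnnb1*, which encodes beta-catenin, differed by 0.07 and *Etv5* by -0.06. Among 13 formative and primed genes, which mark exit from the naive state, 1 was higher (*Tead2*) and 3 were lower in 4 of 4 clones (*Pou3f1*, *Dnmt3a* and *Dnmt3b*), with a median of 0.10. *Dnmt3b*, a de novo DNA methyltransferase, had 9738, 12339, 13195 and 9499 normalized counts at P6 and 7382, 6693, 10843 and 6961 at P16 in clones 6, 20, 30 and 36, a log2 change of -0.50 with a standard error of 0.13. *Dnmt3a*, its partner enzyme, differed by -0.17 with a standard error of 0.09, and *Tead2*, a Hippo pathway factor, by 0.20 with a standard error of 0.07. No gene of either list passed in limma for passage, a test that called 1 of all 14791 names as deposited (0 after restoring). The genes named here other than the 3 most abundant of each list were chosen after their values were seen.

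Markers of other cell types were also counted. The 11 primitive endoderm markers, of which *Lama1* gave most counts, summed to between 11315 and 38245 normalized counts at P6 and between 9323 and 28919 at P16, highest in the P6 library of clone 36 and lowest in the P16 library of clone 30. The 12 fibroblast markers summed to between 7173 and 11795 at P6 and 6881 and 10492 at P16, with 2 of them (*Lum* and *Fap*) under a mean of 10. The 7 trophoblast markers summed to between 884.8 and 1388, with *Tead4* the highest in mean and *Elf5* under a mean of 10. The 5 neuroectoderm markers summed to between 2679 and 4780, with *Nes* the highest in mean and *Olig2* under a mean of 10. The 7 markers of 2-cell-like cells summed to between 978.1 and 3244 at P6 and 1222 and 1694 at P16. Their part in the values of the 10 factors was not tested.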

How the data were processed

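Poly(A)+ RNA of 8 libraries (clones 6, 20, 30 and 36 at passages 6 and 16) was sequenced from a stranded library kit. Per the study's methods and the submitters' processing notes, the authors aligned reads with TopHat2 2.0.10, Bowtie 1.0.0 and SAMtools 0.1.19, counted them per gene with HTSeq 0.5.3p9 on GRCm38/mm10 and used DESeq2. Each deposited value is a normalized signal: the gene's count over the size factor the authors had for that library. Whole reads were recovered for 100% of values (relative tolerance 1e-06), with totals of 21394069 to 34295561.

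The main test was limma 3.58.1 in R 4.3.3 (moderated, with a mean-variance trend) on the log2 of normalized count + 1, a scale that understates the change of low genes. It covered 14791 names whose mean was 10 or more, two-sided, Benjamini-Hochberg adjusted, threshold 0.05, without a clone term. Clones were compared by a moderated F test with passage as a term. The recovered reads were tested with edgeR 4.0.16 and DESeq2 1.42.0 as alternatives. The limma tests were also run on simulated counts without displaced rows. The changes set there were larger than those of the 10 factors, so that check does not bear on changes of their size. Displaced rows were restored as an alternative.

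The members and lists were chosen with earlier results of these data known. The text names all members, of each other list the 3 genes with the highest mean and those past the clone test, the 5 names most like *Nanog*, each member's most similar member, and tested genes within 500 kb. A few names that this rule gives are not reported here. Positions are from RefSeq GRCm38.p6, and exon lengths from GENCODE. Pairing comes from the clone number in the labels. Deviations of the 2 libraries of a clone correlated at r = 0.07, 0.27, 0.69 and 0.42 for clones 6, 20, 30 and 36.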

Additional observations from a re-analysis of the deposited data

Results flagged for a closer look

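Each factor was examined over its 4 clones at either passage and in its change (20 sets of levels and 10 of changes, which derive from them). Of these 30 sets, 5 held 1 clone apart from the other 3 by a gap past Dixon's critical value, where chance gives about 1 set in 20. On the log2 scale, *Klf4* at passage 16 was 12.6772 in clone 6 against 12.4375 to 12.4607 in the other clones. *Klf5* at passage 6 was 11.2427 in clone 30 against 11.4658 to 11.508. *Tfcp2l1* stood apart at both passages, at 12.7988 in clone 20 at passage 6 (others 12.5354 to 12.5408) and at 12.5331 in clone 36 at passage 16 (others 12.7292 to 12.7603). *Nr5a2* at passage 16 was 10.3639 in clone 36 against 10.2121 to 10.227. The causes were not tested.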

How the results depend on the processing

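The passage test called 1 name in limma, and also 1 under each other pseudocount, filter and scaling and with edgeR, but 46 with DESeq2 (18 higher, 28 lower). The 1 name in limma, and 41 of the 46, lay in displaced groups. With the clone as a replicate block the test called 0 in limma (884 with an unadjusted p under 0.05), 2 in edgeR and 98 in DESeq2. Of these, 2 and 42 lay in displaced groups. Without 1 library the count ran from 1 to 13, with 13 without clone 30 at P6 and 12 without clone 30 at P16, all in displaced groups. Without clone 20 it was 4 at either passage. Without clone 6 or 36 at P16 it was 2 or 3. With row order restored (the versions with edgeR, DESeq2 or the block were added after seeing the data) the counts were 0 in limma, edgeR, DESeq2 and blocked limma and 39 in blocked DESeq2. The clone test called 20 names (12 in displaced groups), 1120 with DESeq2 (236 in displaced groups), and 89, 93 and 850 in limma, edgeR and DESeq2 after restoring. Leaving out a clone gave 0 to 95, with 0 without clone 20 (1843 with an unadjusted p under 0.05) and 95 without clone 6. In none of 170 alternative tests was a member past 0.05 for clone. Of 100 alternative values of the members' passage changes, 3 turned sign, all of *Klf2* (0.0006 over all clones): -0.15 without clone 20, -0.03 without clone 30 and -0.03 relative to its chromosome. For *Nanog* the change fell to 0.18 relative to its chromosome. The causes were not tested. With 1 library per clone and passage, precision is limited by the 4 clones.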

Other observations

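*Rif1*, which encodes a regulator of replication timing that is abundant in ES cells, was the 1 gene of the other pluripotency list past the clone test with the row order restored (adjusted p = 0.04699 from limma, 0.2554 as deposited). With the order restored, 0.608% of names passed this test. Counts of *Rif1* are the same in both orders, so its adjusted p-values differ only through the other names. *Rif1* had 15733, 19156, 9785 and 15475 normalized counts at P6 and 12523, 14436, 6428 and 14980 at P16 in clones 6, 20, 30 and 36, lowest in clone 30 at both passages. *Tdh*, the threonine dehydrogenase of mouse ES cells, had 5334, 5333, 5234 and 5521 at P6 and 3437, 4236, 4511 and 4845 at P16, lower in 4 of 4 clones (9.14% of names outside displaced groups) and without overlap (1.16%). *Tdh* was chosen after its values were seen.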
